A study of Mus musculus with 22 samples.

Results

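The loci described here are the ends of 2262 transcripts of 2135 genes whose 3′ terminal region spanned under 1000 bases. They were chosen by 1 rule: a deposited table of polyadenylation site use had to list the transcript with a locus whose end minus start was under 1000. Of 5559 transcripts of 5143 genes listed in any of the 5 tables, the other 3297 had a locus of 1000 bases or more and are called longer loci below. The measured quantity was the percentage of distal poly(A) site usage index (PDUI), the share from 0 to 1 of a transcript's RNA that ran past a predicted proximal site to the far end of the locus. The rule used length only, so that no PDUI entered the choice of loci. By the study's methods a listing also needed a minimum read coverage, so it depended on expression.

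RNA was sequenced from 6 populations of epithelial cells of wild type male C57BL/6N mice aged 5 to 7 weeks, with no treatment. All were sorted from the colon as live Epcam+ Cd31- Cd45- cells: Stem (Cd44highest, Cd24low, Ckit-, 3 libraries), AbsPro (absorptive progenitors, Cd44med/hi, Cd24low, Ckit-, 3 libraries), SecPDG (secretory progenitors and deep crypt secretory cells, Cd44hi, Cd24med, Ckitmed, 4 libraries), Tuft (Ckit+, Cd24hi, 5 libraries), Enterocyte (Cd44low/-, Cd24-, 5 libraries) and EEC (enteroendocrine cells, Cd44low/-, Cd24+, 2 libraries). Sorts were pooled where cells were few. Each of the 5 tables held Stem and 1 other population, with proximal sites predicted anew for each table, so that the 5 comparisons share the 3 Stem libraries and their values stand side by side without a test between tables. The short loci numbered 2115 of 5137 transcripts in the AbsPro table, 1787 of 4356 in the SecPDG table, 1333 of 3318 in the Tuft table, 1044 of 2538 in the Enterocyte table and 567 of 1343 in the EEC table. In all, 374 were listed in all 5 tables and 379 in 1 table only.

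Most messenger RNAs end where the nascent transcript is cut and a poly(A) tail is added, usually a short way after the hexamer AATAAA or a close variant of it. A gene with several such sites can make mRNAs that code for the same protein and differ in the length of the 3′ untranslated region, which holds binding sites for microRNAs and RNA binding proteins. Dividing cells are known in several tissues to favour near sites. Replication-dependent histone mRNAs are an exception, since they end at a stem-loop and usually carry no poly(A) tail.

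Gene models of the same assembly (GENCODE M21, GRCm38, which is mm10) were found for 2054 of the 2262 short loci (90.8%). The 5′ edge of the locus lay within 2 bases of the start of the last exon in 1964 of these (95.6%). The loci were therefore last exons rather than untranslated regions alone: 1905 of 2017 loci of coding models held coding sequence (94.4%), which took up a median of 22.5% of the locus, against 8.29% in longer loci. More than 50% of the locus was coding in 291 short loci (14.4%) and in 205 of 2927 longer loci (7.0%). The short loci held a median of 430 bases after the stop codon and the longer loci 1690, and 478 longer loci (16.3%) also had under 1000 bases there. The locus ended at the end of the model's transcript in 947 of the 2054 short loci (46.1%), so that these are bases within the locus and not always the whole 3′ UTR.

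The proximal site lay 201 to 693 bases after the start of the locus, and no site was nearer than 201 bases. This first position was chosen for 1031 of 2115 short loci in the AbsPro table (48.7%) and for 774 of 3022 longer loci (25.6%). In the other 4 tables the share was 50.3% to 54.0% of short loci and 25.8% to 31.2% of longer ones. In the AbsPro table the share was larger the shorter the locus, from 21.4% at 2000 bases and over and 37.1% at 800 to 999 bases to 66.6% under 400 bases, counted over loci with a value in all 3 Stem libraries. The site fell inside coding sequence in 16.8% to 21.4% of short loci, by table.

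**Figure D1:**
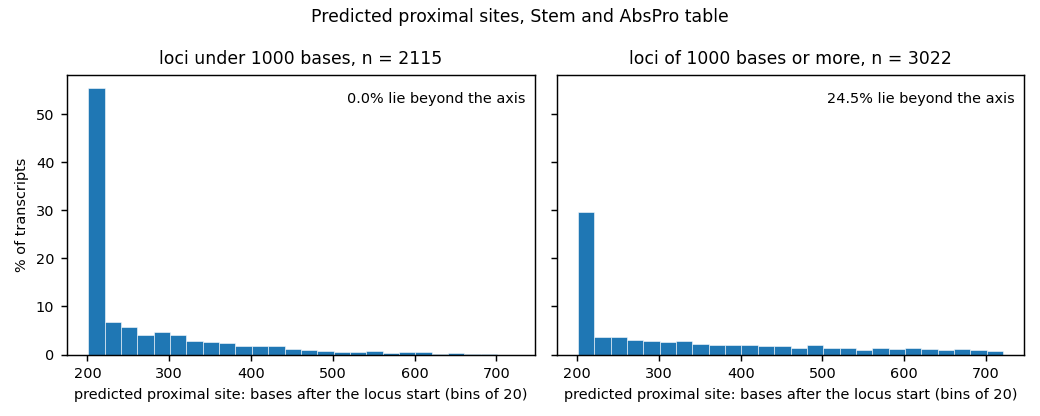
Histograms of the distance from the locus start to the predicted proximal site in bases (x axis, bins of 20) as a percentage of transcripts (y axis), for loci under 1000 bases (left) and longer loci (right) in the AbsPro table. The first bin, which starts at 201 bases, towers over the rest in both panels and is taller for short loci; a share of the longer loci lies beyond the axis and is printed in the panel.

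The sequence before a site is shown for 4 loci, because it separates annotated ends from most predicted proximal sites. Each line holds 30 bases on the transcript strand, taken from GENCODE M21 transcripts with GRCm38 coordinates, and AATAAA is in capitals where present. A proximal window stops at the predicted site, and an end window lies within the last 50 bases of the transcript. Rpl14, a protein of the large ribosomal subunit, had the hexamer at both places:
Rpl14 proximal, chr9:120574386-120574415, + strand: aaagcgtgaggctacacagaatAATAAAgg
Rpl14 end, chr9:120574611-120574640, + strand: aacaAATAAAtttcccaccaacgggtggaa
The loci of Wdhd1, a DNA replication protein, and Coro1b, an actin binding coronin, had it at the end only:
Wdhd1 proximal, chr14:47241611-47241640, - strand: tgtcagcgtttgcatttaagcaggagtaaa
Wdhd1 end, chr14:47240944-47240973, - strand: ttctgAATAAAtaaaactttctcatttgca
Coro1b proximal, chr19:4153859-4153888, + strand: ggggcccaggttggaagcaccacctgactt
Coro1b end, chr19:4154006-4154035, + strand: attccaAATAAAatgctctttctaaagcca
Hist1h4n, a gene for core histone H4, is shown because its locus was the 1 called below, and its predicted site lay 76 bases before the stop codon, inside the coding sequence:
Hist1h4n proximal, chr13:21831923-21831952, - strand: cgccgtcacctacacggagcacgccaagcg
The Wdhd1 site, at the first position, lay 1 base after the stop codon, and the Rpl14 site lay 21 bases after it.

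Across all short loci with a model, AATAAA stood in the 50 bases up to the predicted site in 38 of 904 loci with the site at the first position (4.2%) and in 34 of 984 with a later site (3.46%), in the AbsPro table. Of the 50-base windows tiled over the short last exons before their last window, 246 of 9784 held it (2.51%). The last 50 bases of the transcript held it in 599 of 885 loci whose end matched the model (67.7%). The variant ATTAAA stood in 1.55%, 1.52%, 1.54% and 20.2% of these 4 sets. Only the transcript strand was searched, and the 2 hexamers cannot share all their letters but may both occur in a window. In the other 4 tables AATAAA was in 3.5% to 6.74% of windows up to a predicted site and in 67.2% to 71.2% of windows at the end.

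**Figure D2:**
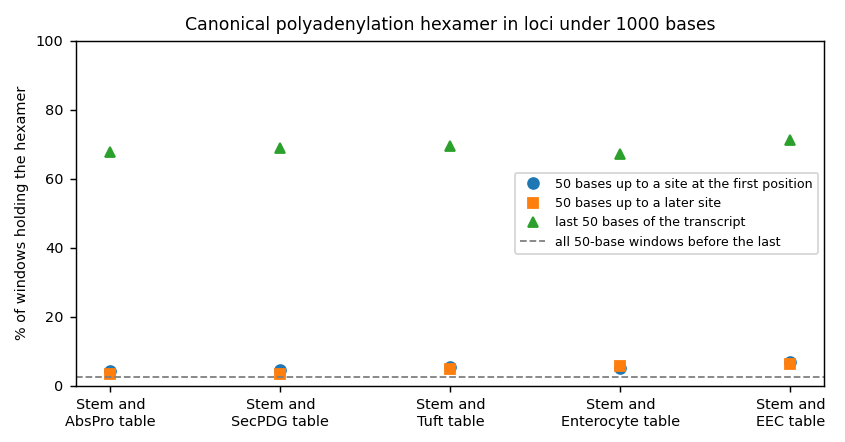
Share of 50-base windows holding the canonical hexamer AATAAA (y axis, percent) in loci under 1000 bases for each of the 5 tables (x axis), with points for windows up to a predicted site at the first position, up to a later site, and at the transcript end, and a dashed line for all windows before the last. Windows at the end lie between 67.2% and 71.2%, and windows at predicted sites lie below 7% beside the line at 2.51%.

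The median PDUI over short loci was above that over longer loci in each of the 34 library columns of the 5 tables, which repeat the Stem libraries. The predicted site was also more often at the first position in short loci (48.7% against 25.6% in the AbsPro table). The part of the site's position in this contrast was not tested. In the AbsPro table the median PDUI of short loci was 0.33, 0.39 and 0.40 in the 3 Stem columns and 0.40, 0.34 and 0.42 in the AbsPro columns, where longer loci had 0.28, 0.32, 0.34, 0.33, 0.27 and 0.35. The mean PDUI of Stem, as a median over loci, was 0.463 for loci under 400 bases, 0.417 at 400 to 599, 0.393 at 600 to 799, 0.372 at 800 to 999, 0.35 at 1000 to 1999 and 0.32 at 2000 and over. Near the limit itself, Nono, an RNA binding protein, and Ppif, a mitochondrial cyclophilin, both with a span of 999, had a Stem mean of 0.82 ± 0.108 and 0.437 ± 0.106 (SD, n = 3). Just outside it were Ppp2r5d, a phosphatase subunit, with a span of 1000 and 0.19 ± 0.01, and Chd8, a chromatin remodeller, with 1001 and 0.297 ± 0.0603.

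The spread between libraries was wide. In the AbsPro table the SD over the 3 Stem libraries had a median of 0.113 over short loci, and it was narrower for genes with more reads. It was 0.144 in the 621 loci of lowest gene count (a median of 452 normalized counts over Stem and AbsPro), 0.121 in the 620 of middle count (1070) and 0.0854 in the 621 of highest count (3060). Over all 6 libraries, 624 of 1836 short loci measured in each of them ranged over 0.5 or more, and 260 ranged over less than 0.1. Only 7 stayed between 0.4 and 0.6 in all 6.

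Some loci lay at an extreme in every library, where limits of 0.9 and 0.1 keep the range small by definition. A PDUI of at least 0.9 in all 6 libraries of the AbsPro table was found at 92 short loci, and one of at most 0.1 at 96. Those named here were among the 8 of highest gene count in each set. The first set held Rpl41, a ribosomal protein, and Ucp2, a mitochondrial uncoupling protein, both at 1.00 in every library. It also held Rpl29 and the linker histone gene Hist1h1c, also at 1.00, in which the predicted site lay inside coding sequence. Mgam, the brush border enzyme maltase-glucoamylase, and Npm1, the nucleolar chaperone nucleophosmin, were at 1.00 in every library as well. The second set held the ribosomal protein genes Rplp0 and Rpsa at 0.00 in every library, Hnrnpa2b1, an RNA binding protein, at 0.00 to 0.03, and Calr, a calcium binding chaperone of the endoplasmic reticulum, at 0.04 to 0.05. Clca3b, of the family of calcium-activated chloride channel regulators, was at 0.04 to 0.07, with a locus that was 83.2% coding. Rpl14 had a PDUI of 0.08, 0.09 and 0.09 in Stem and 0.07, 0.04 and 0.08 in AbsPro. Ribosomal protein genes have many processed copies in the genome, and histone genes are near-identical, so that reads of these loci may be divided among copies.

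The lists of genes had different median levels. The 17 ribosomal protein loci of the AbsPro table had a median Stem PDUI of 0.0867, the 28 loci of the respiratory chain and ATP synthase 0.157, the 19 of the proteasome 0.287, the 39 of the mitochondrial ribosome 0.377 and the 32 of mitosis 0.397. The 55 loci of replication-dependent histones were at 1.00. The median over all short loci was 0.407. These levels are descriptions, since the lists were drawn up with earlier results known and their loci differ in depth and in the position of the site.

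**Figure D3:**
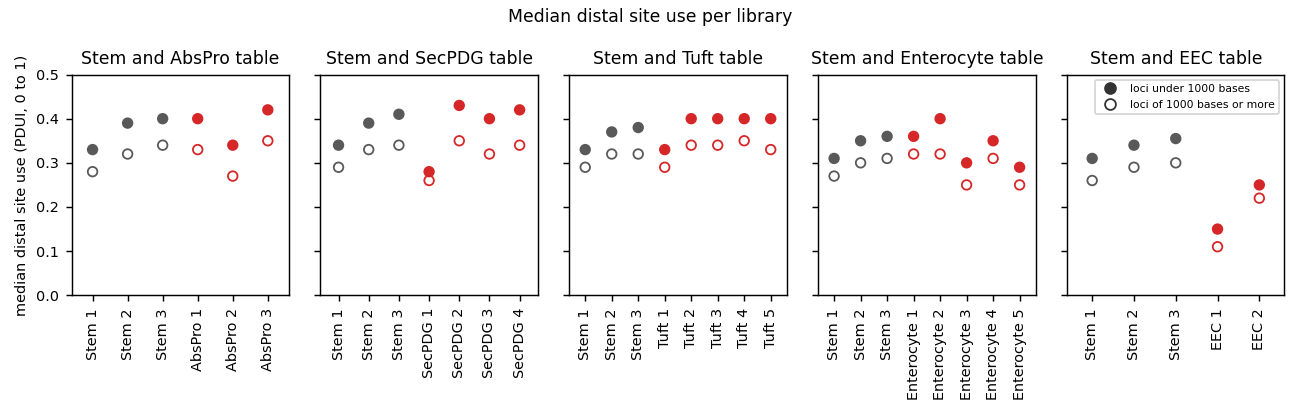
Median PDUI over loci (y axis, 0 to 1) in each library column (x axis) of the 5 tables, with filled points for loci under 1000 bases, open points for longer loci, grey for Stem and red for the other population. Filled points lie above open points in every column, and both EEC columns (0.15 and 0.25) lie below their Stem columns (0.31 to 0.355).

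Medians per library showed no common shift of the short loci from Stem except in EEC. SecPDG had 0.28, 0.43, 0.40 and 0.42 beside 0.34, 0.39 and 0.41 in Stem, and Tuft had 0.33, 0.40, 0.40, 0.40 and 0.40 beside 0.33, 0.37 and 0.38. Enterocyte had 0.36, 0.40, 0.30, 0.35 and 0.29 beside 0.31, 0.35 and 0.36. The columns overlapped in these 4 tables. EEC had 0.15 and 0.25 beside 0.31, 0.34 and 0.355. Longer loci were lower in EEC as well, with 0.11 and 0.22 beside 0.26, 0.29 and 0.30 in Stem. Of short loci, 34.7% and 7.05% were without a value in the 2 EEC columns, against at most 3.0% in Stem. Reads not assigned to a gene made up 91.6% and 70.7% of the 2 EEC libraries and 56.9% to 58.6% of the Stem libraries. They made up 72.7% to 86% of the Enterocyte libraries and 54.1% to 74% of the Tuft libraries. Up to 24.3% of short loci were without a value in an Enterocyte column and up to 6.68% in a Tuft column. The part of missing values and unassigned reads in the lower PDUI of EEC was not tested.

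The libraries held 4122122 to 22462518 counts on genes. Enteroendocrine and tuft markers followed the labels, and goblet and absorptive markers did so only in part. The 4 enteroendocrine markers summed to 597000 and 1710000 normalized counts in the 2 EEC libraries and to at most 27000 elsewhere, and the 4 tuft markers to 22800 to 61400 in Tuft and at most 7410 elsewhere. The 6 goblet markers summed to 748000 to 1090000 in Tuft, close to the 765000 to 3160000 of SecPDG, to 224000 to 677000 in Enterocyte and 83500 to 253000 in AbsPro, against 19100 to 32300 in Stem. The 5 absorptive markers summed to 62000 to 95500 in AbsPro and 46600 to 67800 in Enterocyte, against 11200 to 22300 in Stem. They summed to 20900 and 131000 in EEC, the higher of these above every AbsPro and Enterocyte library. The 3 endothelial markers summed to 780 to 1140 in EEC and at most 16.2 in Stem. The part of these other cells in the PDUI was not tested, and in sorted bulk cells a smaller share of cells of a type and less RNA per cell cannot be told apart.

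The first comparison asked whether distal site use in short loci differs between stem cells and absorptive progenitors. No short locus passed limma's moderated test on the log2 ratio of distal to proximal use (0 of 2063 tested at an adjusted p under 0.05), where 0.0% of all 4976 transcripts did. At an unadjusted p under 0.05 there were 87 short loci (4.22%), beside 3.94% of all transcripts. Of these, 52 were higher in AbsPro and 35 lower, beside 2.29% and 1.65% of all transcripts. With a trend in the prior spread 2 were called. The lowest adjusted p among short loci was 0.0695. The groups did not overlap, with AbsPro higher, at 104 short loci beside 4.9% of all transcripts, and with AbsPro lower at 70 beside 3.76%. The median difference in PDUI was 0, while 520 short loci (25.2%) had means at least 0.15 apart, beside 21.5% of all transcripts.

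The loci with the widest differences in AbsPro give the size of that spread. They were chosen after their values were seen, among loci whose groups did not overlap, with a value in every library and a gene mean of at least 1000 normalized counts. Boc, a cell surface co-receptor of Hedgehog ligands, had a PDUI of 0.31, 0.39 and 0.50 in Stem and 1.00, 1.00 and 0.64 in AbsPro. Mrpl28, of the mitochondrial ribosome, had 0.38, 0.15 and 0.45 against 0.62, 1.00 and 0.66. Xpo6, a nuclear exportin, had 0.00, 0.23 and 0.22 against 0.25, 0.77 and 0.66. AbsPro was the higher in these, with gaps between the nearest libraries that were smaller than the range within each group. In the other direction, Psmc1, an ATPase subunit of the proteasome, had 1.00, 0.70 and 0.51 in Stem and 0.40, 0.00 and 0.46 in AbsPro. Phlda1, a pleckstrin homology-like domain protein, had 1.00, 1.00 and 0.57 against 0.56, 0.37 and 0.30. Lurap1l, an adaptor protein, had a tight Stem group of 0.88, 0.88 and 0.84 above 0.52, 0.37 and 0.58 in AbsPro, with a predicted site 88 bases before the stop codon. The adjusted p by limma was 0.669 for Lurap1l and 0.922 for the other 5, although group means were 0.377 to 0.48 apart in size.

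**Figure D4:**
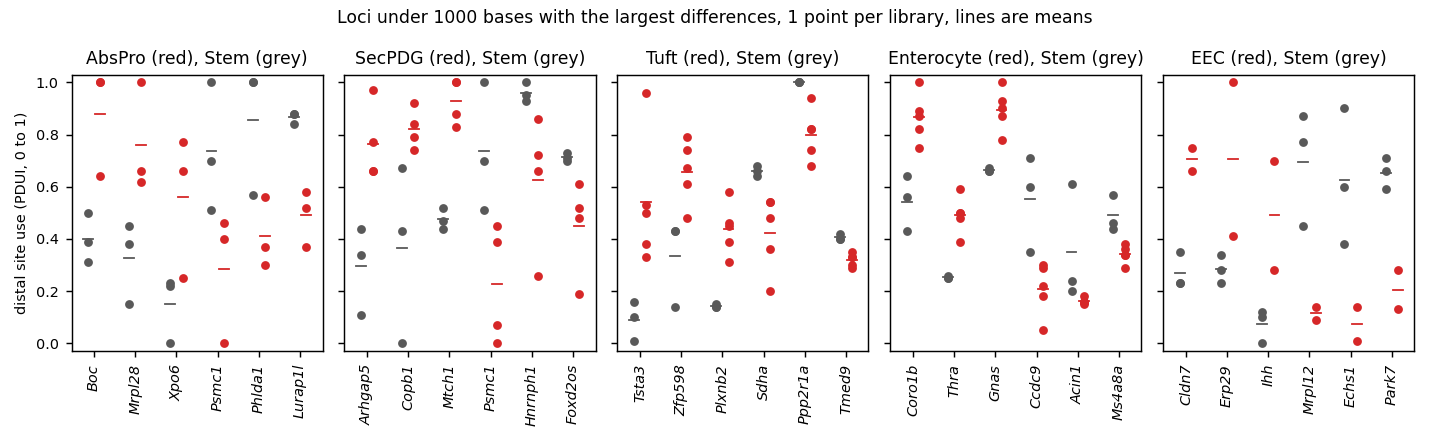
PDUI (y axis, 0 to 1) of the 3 loci with the largest higher and the 3 with the largest lower mean in each population (x axis) among loci of well expressed genes whose groups do not overlap, 1 point per library, Stem in grey and the other population in red, with short lines at the group means. The width of each group of points shows the spread between libraries.

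In SecPDG, the secretory counterpart, no short locus was called either (0 of 1748 by limma; 1 of 4223 transcripts, 0.0237%, in all). At an unadjusted p under 0.05 there were 87 (4.98%), beside 4.85% of all, with 42 higher (2.32% of all transcripts) and 45 lower (2.53%). Groups did not overlap at 52 short loci with SecPDG higher and 45 with it lower, beside 3.53% and 3.17% of all transcripts. The median difference was 0, and 418 loci (23.9%) had means at least 0.15 apart, beside 20.8% of all transcripts.

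Copb1, a subunit of the coat of Golgi vesicles, combined a wide difference in PDUI with a change in mRNA. Its PDUI was 0.00, 0.43 and 0.67 in Stem and 0.79, 0.92, 0.84 and 0.74 in SecPDG, a difference of 0.456 with an adjusted p of 0.847 by limma, and its mRNA rose by 1.87 on the log2 scale (edgeR, adjusted p = 0.00423). Mtch1, a mitochondrial outer membrane protein, had a tight Stem group of 0.47, 0.52 and 0.44 below SecPDG at 1.00, 1.00, 0.83 and 0.88. Arhgap5, a GTPase activating protein, had 0.11, 0.44 and 0.34 against 0.66, 0.66, 0.97 and 0.77. These 3 loci, chosen like those of AbsPro, had SecPDG above Stem in every library. SecPDG was lower for Psmc1, with 0.00, 0.39, 0.07 and 0.45, beside the same 3 Stem values as above. Hnrnph1, a splicing regulator, had 1.00, 0.93 and 0.95 in Stem against 0.26, 0.66, 0.86 and 0.72. In both the lowest value was that of SecPDG 1, the library with the lowest median over all short loci. Foxd2os, a noncoding RNA transcribed beside Foxd2 from the other strand, had a tight Stem group of 0.73, 0.70 and 0.71 above 0.61, 0.48, 0.19 and 0.52, and its RNA level fell by 1.92 on the log2 scale in SecPDG (edgeR, adjusted p = 0.000663). The adjusted p of the PDUI was 0.847 by limma for all 6 loci.

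In Tuft 0 of 1318 short loci were called by limma (2 of 3257 transcripts, 0.0614%, in all), and 75 had an unadjusted p under 0.05 (5.69%, beside 5.19% of all). Of the 75, 55 were higher in Tuft (3.41% of all transcripts) and 20 lower (1.78%). Tuft was higher without overlap at 47 short loci and lower at 17, beside 3.75% and 1.29% of all transcripts, and the median difference was 0.00867, beside 0.0125 over all transcripts. Plxnb2, a plexin receptor of semaphorins, had a tight Stem group, with 0.14, 0.15 and 0.14, below Tuft at 0.39, 0.58, 0.31, 0.46 and 0.45 (limma, adjusted p = 0.242). Tsta3, the GDP-L-fucose synthase that supplies the sugar donor for fucosylated mucins, had a PDUI of 0.16, 0.01 and 0.10 in Stem and 0.96, 0.53, 0.50, 0.33 and 0.38 in Tuft. Zfp598, a ubiquitin ligase that acts on stalled ribosomes, had 0.14, 0.43 and 0.43 against 0.74, 0.67, 0.79, 0.48 and 0.61. The groups lay apart in these, by the least in Zfp598. Ppp2r1a, the scaffold subunit of protein phosphatase 2A, was at 1.00 in each Stem library and at 0.74, 0.82, 0.68, 0.82 and 0.94 in Tuft, with a log2 ratio difference of -4.55 ± 0.59 (SE, adjusted p = 0.085 by limma). Sdha, a subunit of succinate dehydrogenase, had 0.66, 0.64 and 0.68 in Stem against 0.36, 0.48, 0.20, 0.54 and 0.54. Tmed9, of the traffic between the endoplasmic reticulum and the Golgi, had 0.40, 0.42 and 0.40 against 0.35, 0.33, 0.29, 0.30 and 0.33, a small difference of -0.0867 with little spread. The adjusted p of Tsta3, Zfp598, Sdha and Tmed9 was 0.855. No gene of these 6 was called for mRNA in Tuft.

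Enterocyte was the population with a called short locus, 1 of 1027 tested, and it was the only transcript called of 2449 (0.0408%). The locus was that of Hist1h4n (chr13:21831793-21832158, - strand, 365 bases, 85.2% coding). Its PDUI was 0.88, 0.72 and 0.89 in Stem and 1.00 in all 5 Enterocyte libraries, and the log2 ratio rose by 4.32 ± 0.36 (SE, adjusted p = 0.0147 by limma), a size that the pseudocount of 0.01 sets where a group is at 1.00. In the other 4 tables the adjusted p of Hist1h4n was 0.847 to 0.922, and the EEC libraries were at 0.42 and 1.00. Its mRNA difference was -2.24 on the log2 scale (edgeR, adjusted p = 0.0126), short of the 0.01 threshold. The gene had a mean of only 148 normalized counts over Stem and Enterocyte. The 321 short loci of lowest gene count in the Enterocyte table had a median of 471. The SD over the Stem libraries had a median of 0.103 in these loci and 0.0635 in the 321 of highest count. The part of low counts in the values of 1.00 was not tested. Since the predicted site lay within coding sequence and histone mRNAs usually lack a tail, the PDUI here is a ratio of coverage along the exon. The call was lost with a pseudocount of 0.05 (a difference of 2.32, adjusted p = 0.241), on the PDUI itself (0.446), with a replicate block (0.733) and without Enterocyte 1, 2, 3 or 5 (0.0911 to 0.0962).

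Hist1h4n belongs to 56 short loci of replication-dependent histones, the chromatin proteins made during DNA replication, of which 48 of 51 with a model were single exons. A median of 83.2% of the locus was coding, and the predicted site lay in coding sequence in 49 of 50 with a model in the AbsPro table and 16 of 17 in the Enterocyte table. The mRNA of 11 of the 20 histone genes in the Enterocyte table was called, all of them lower, where 13.5% of all genes were called. With DESeq2's size factors there were 9, also lower, where 16.2% of all genes were called.

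With that locus included, 84 short loci had an unadjusted p under 0.05 in Enterocyte (8.18%), beside 8.53% of all transcripts, 57 of them higher (4.9% of all) and 27 lower (3.63%). Groups did not overlap at 48 with Enterocyte higher and 27 with it lower, beside 4.41% and 3.23%. Thra, the thyroid hormone receptor alpha gene, had a tight Stem group, with 0.25, 0.25 and 0.26, below Enterocyte at 0.39, 0.59, 0.50, 0.50 and 0.48, and an adjusted p of 0.222. Gnas, the stimulatory G protein alpha subunit, had 0.66, 0.66 and 0.67 in Stem below 1.00, 0.87, 0.78, 0.93 and 0.90 in Enterocyte (0.563). Both pairs of groups were separated by more than the range of Stem. Coro1b had 0.43, 0.56 and 0.64 against 1.00, 0.89, 0.87, 0.82 and 0.75 (0.563). Enterocyte was lower for Ccdc9, a coiled-coil protein, with 0.35, 0.71 and 0.60 in Stem against 0.22, 0.30, 0.18, 0.29 and 0.05 (0.521). Acin1, of RNA processing complexes, had 0.61, 0.20 and 0.24 against 0.18, 0.16, 0.16, 0.16 and 0.15 (0.563), with Stem 1 well above the other 7 libraries. Ms4a8a, a membrane protein of the MS4A family, had 0.57, 0.46 and 0.44 against 0.29, 0.38, 0.36, 0.34 and 0.34 (0.443). The p-values of these 6 are limma's over the whole table. The mRNA of Ms4a8a rose by 1.32 on the log2 scale (edgeR, adjusted p = 0.0081; 0.0249 with a replicate block), close to the median of 1.16 over all genes in Enterocyte. The predicted site lay in coding sequence at the loci of Thra, Ccdc9 and Acin1.

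EEC differed most from Stem in direction, over all transcripts as well as over short loci. Of 351 short loci tested, 79 (22.5%) had both EEC libraries below all 3 Stem libraries and 15 (4.27%) had both above. Over all 735 transcripts tested these shares were 27.6% and 4.63%. At an unadjusted p under 0.05 there were 44 lower and 3 higher, beside 12.7% and 1.09% of all transcripts (13.7% in both directions), and 0 passed the adjusted threshold by limma (0.0% of all transcripts). The median difference was -0.0433, beside -0.0533 over all transcripts. Mrpl12, of the mitochondrial ribosome, had a PDUI of 0.45, 0.87 and 0.77 in Stem and 0.14 and 0.09 in EEC, and its mRNA fell by 2.82 on the log2 scale (edgeR, adjusted p = 5.63e-05). Echs1, the mitochondrial enoyl-CoA hydratase, had 0.60, 0.90 and 0.38 against 0.14 and 0.01. Park7, the redox-sensitive protein DJ-1, had 0.71, 0.59 and 0.66 against 0.13 and 0.28, and its mRNA fell by 1.69 (edgeR, adjusted p = 0.00264). Both EEC libraries lay far below Stem in these. EEC was higher for Cldn7, a claudin of tight junctions, with 0.66 and 0.75 above 0.35, 0.23 and 0.23 in Stem. Erp29, a protein of the endoplasmic reticulum, had 1.00 and 0.41 above 0.23, 0.28 and 0.34. The adjusted p of the PDUI by limma was 0.186 to 0.465 over these 5.

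When all 22 library columns entered 1 fit, a choice made after the values were seen, 14 short loci were called in EEC, 2 higher and 12 lower, beside 0.544% and 2.45% of all 735 transcripts tested, and 13 of them are described. In 11 of the 13 the site was at the first position. The fitted spread was then shared with the other populations. Among those lower, Atp5f1, of the mitochondrial ATP synthase, had a PDUI of 0.27, 0.28 and 0.25 in Stem and 0.01 and 0.04 in EEC. Mdh2, the mitochondrial malate dehydrogenase, had 0.12, 0.15 and 0.10 against 0.00 and 0.01, and Ilf2, an RNA binding protein, 0.41, 0.16 and 0.34 against 0.00 and 0.01. All 3 were near 0 in both EEC libraries, and the mRNA of each was lower in EEC (log2 fold change -1.99, -1.84 and -2.21). Psma4, a proteasome subunit, Arf5, a small GTPase of vesicle traffic, Ostc, of the oligosaccharyltransferase complex, Hist2h4, a gene for histone H4, Npdc1, a neural differentiation protein, and 2 transcripts of Abracl were lower as well. Hist1h2bj, a gene for histone H2B, had the widest difference, with 0.82, 1.00 and 1.00 in Stem and 0.00 and 0.04 in EEC. The 2 higher were Aldh2, the mitochondrial aldehyde dehydrogenase, with 0.00 in all Stem libraries and 0.25 and 0.06 in EEC, and Ihh.

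The genes Top2a, Wdhd1, Cby1, Rbm3 and Ihh are ones the study discussed for polyadenylation, and all had short loci. By its own test the study reported more distal use of Top2a, Wdhd1 and Cby1 in progenitors. It described the same for Rbm3 in AbsPro and for Ihh in SecPDG. None was called by limma in the fit of any single table, while Ihh was called in EEC in the 1 fit of all 22 library columns. Cby1, an antagonist of beta-catenin, had 0.16, 0.55 and 0.42 in Stem and 0.81, 0.79 and 0.65 in AbsPro, without overlap, and Rbm3, a cold-inducible RNA binding protein, had 0.21, 0.63 and 0.63 against 0.70, 0.93 and 0.78. In SecPDG the Cby1 values were 1.00, 0.50, 0.59 and 0.48 and the Rbm3 values 0.31, 0.67, 0.92 and 0.59, both overlapping Stem. Wdhd1 had 0.19, 0.21 and 0.11 in Stem, 0.74, 0.54 and 0.22 in AbsPro, and 1.00, 0.16 and 0.38 in the 3 SecPDG columns with a value. Top2a, the topoisomerase of dividing cells, had 0.10, 0.12 and 0.36 in Stem, 0.54, 0.58 and 0.36 in AbsPro and 0.18, 0.50, 0.80 and 0.35 in SecPDG, overlapping in both. For these 4 loci the adjusted p was 0.847 to 0.922 over the 2 progenitor tables.

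Ihh, the Hedgehog ligand of the colon epithelium, was low in Stem, with 0.00, 0.12 and 0.10. It was 0.21, 0.27 and 0.18 in AbsPro (adjusted p = 0.922) and 0.05, 0.08, 0.08 and 0.10 in SecPDG (0.889). At this locus the SecPDG values lay within the range of Stem and those of AbsPro lay above it, while the study described the distal shift in SecPDG. It was 0.25, 0.17, 0.02, 0.08 and 0.13 in Tuft (0.86), 0.33, 0.16, 0.22 and 0.26 in the 4 Enterocyte columns with a value (0.563) and 0.70 and 0.28 in EEC (0.397). By mean the order was Stem 0.0733 ± 0.0643, SecPDG 0.0775 ± 0.0206, Tuft 0.13 ± 0.0875, AbsPro 0.22 ± 0.0458, Enterocyte 0.242 ± 0.0714 and EEC 0.49 ± 0.297 (SD, n = 3, 4, 5, 3, 4 and 2). Each population overlapped its neighbours in this order. All these p-values are limma's from the fit of each single table. In the 1 fit of all library columns the adjusted p of Ihh in EEC was 0.0459 by limma.

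Hist1h4n was the 1 member of the gene lists that was called in the fit of any single table. Of the 17 ribosomal protein loci in the AbsPro table, 1 had an unadjusted p under 0.05, where 3.94% of all transcripts did. Of loci tested, the count was 2 of 27 of the respiratory chain, 1 of 38 of the mitochondrial ribosome, 0 of 19 of the proteasome, 3 of 32 of mitosis, 0 of 11 of DNA replication and 3 of 41 of splicing and RNA binding. The SUMO pathway had 1 of 8, cleavage and polyadenylation factors 0 of 9, Wnt, Notch and hedgehog signaling 1 of 13, vesicle traffic 3 of 45, translation initiation 0 of 14, ubiquitin conjugation 0 of 15 and histones 1 of 55. Their median differences in PDUI ran from -0.0417 to 0.03, beside 0 over all transcripts tested. In the EEC table, where 12.7% of all transcripts were lower at an unadjusted p, 5 of 19 histone loci, 2 of 4 of the proteasome and 2 of 6 of vesicle traffic were lower. The count was 1 of 7 of the respiratory chain, 1 of 6 of splicing and RNA binding and 1 of 3 of the mitochondrial ribosome. It was 0 of 9 of ribosomal proteins, 0 of 6 of Wnt, Notch and hedgehog signaling and 0 of 2 of ubiquitin conjugation. Lists with 1 locus tested had 0. The median difference of the histone loci was -0.107, beside -0.0533 over all transcripts.

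The site itself was a further source of difference. The AbsPro and SecPDG tables hold the same 3 Stem libraries, and 1579 short loci have a Stem mean in both. The predicted site was the same in 1036 (65.6%), and there the Stem means were identical. It was 1 to 20 bases apart in 314 (19.9%), with a median difference of the Stem mean of 0.0034, and 21 to 100 bases apart in 148 (9.37%), with 0.0433. In the 81 loci (5.13%) with sites over 100 bases apart the median difference was 0.163, and 42 of them differed by at least 0.15. For Med1, a subunit of Mediator, the sites were 228 and 448 bases from the start, and the same Stem libraries had a mean of 0.61 ± 0.0954 in one table and 0.13 ± 0.0436 in the other (SD, n = 3). For Gpx2, the glutathione peroxidase of the gut, sites at 478 and 317 bases gave 0.327 ± 0.0231 and 0.667 ± 0.0231. At such loci values of different tables refer to different sites.

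**Figure D5:**
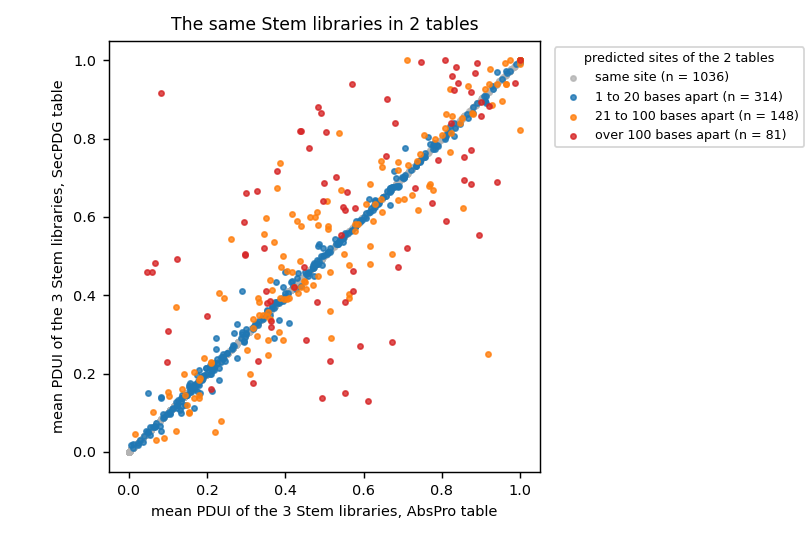
Mean PDUI of the same 3 Stem libraries in the AbsPro table (x axis) and the SecPDG table (y axis), 1 point per locus under 1000 bases, coloured by how far apart the predicted sites of both tables lie. Loci with the same site lie on the diagonal, and the 81 with sites over 100 bases apart scatter widely from it.

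Levels of mRNA, which the length rule did not use, changed in many of the same genes. Listing in a table did depend on expression, since the study ran DaPars with a coverage cutoff. Genes with a short locus are therefore expressed ones, while the shares over all genes include weakly expressed genes. The part of this in the number and direction of calls was not tested. Of genes with a short locus in the table, edgeR called 4 of 1911 in AbsPro (0.364% of all genes tested), 81 of 1617 in SecPDG (3.1%), 110 of 1196 in Tuft (6.44%), 182 of 942 in Enterocyte (13.5%) and 114 of 517 in EEC (14.0%), where a call needed an adjusted p below 0.01 and 50 or more normalized counts on average. The calls were all higher in AbsPro, 61 higher and 20 lower in SecPDG, 35 and 75 in Tuft, 36 and 146 in Enterocyte and 17 and 97 in EEC. Over all genes called in the same fit, 94% were higher in AbsPro and 77.8% in SecPDG, where short loci had 75.3%. That share was 68.5% in Tuft, 41.4% in Enterocyte and 46.9% in EEC. The split at short loci moved with the scaling. When libraries were scaled by the size factors of DESeq2 instead, 81.8% of the calls at short loci were higher in AbsPro in place of 100%. The share was 48.4% in Tuft in place of 31.8%, 52.7% in Enterocyte in place of 19.8% and 41.2% in EEC in place of 14.9%. Over all genes called it was then 90.5% in AbsPro, 73.3% in Tuft, 69.9% in Enterocyte and 72.4% in EEC. The median of genes with a short locus was then -0.151 in Tuft, -0.00076 in Enterocyte and -0.141 in EEC. The median log2 fold change of all genes went from 0.845 to 1.07 in Tuft, from 1.16 to 1.79 in Enterocyte and from 0.696 to 1.45 in EEC, and fold changes are relative to that shift.

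Calls for mRNA among the gene lists were all lower ones in Enterocyte and EEC by edgeR with TMM. With DESeq2's size factors, and also with its Wald test, 1 gene of translation initiation in Enterocyte and 2 of Wnt, Notch and hedgehog signaling in EEC were called higher, and the Wald test called 3 vesicle traffic genes higher in Enterocyte. Ribosomal protein genes were called lower in 11 of 18 in Enterocyte (9 with DESeq2's size factors) and in 7 of 10 in EEC (6), and higher in none under either scaling, beside 13.5% and 14.0% of all genes called. Rplp0, Rpsa and Rpl14 fell by 1.69, 1.82 and 1.56 on the log2 scale in Enterocyte (edgeR, adjusted p = 0.0045, 0.00183 and 0.00116), while the PDUI differences of ribosomal protein loci there had a median of 0.000666. Histone genes were called lower in 11 of 21 in EEC (6 with the size factors) and 3 of 37 in Tuft (2), where 6.44% of all genes were called. Genes of the mitochondrial ribosome were called lower in 4 of 24 in Enterocyte (2), near the share of all genes, and 3 of 8 in EEC (2). Those of the proteasome were called lower in 3 of 12 in Enterocyte (2). In SecPDG 3 of 39 vesicle traffic genes were called, all higher (8 with the size factors, all higher), beside 3.1% of all genes. With the size factors the share over all genes was 5.29% in SecPDG, 9.95% in Tuft, 16.2% in Enterocyte and 19.2% in EEC.

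Several of the genes with the largest mRNA changes encode products that define these cells, and their distal site use can be followed over the same libraries; they were chosen after their values were seen. Muc2, the gel-forming mucin of the colon, rose by 5.70 on the log2 scale in SecPDG (edgeR, adjusted p = 8.78e-05), from 9243 to 17620 normalized counts in Stem to 358000 to 1143000. Its PDUI was 0.21, 0.28 and 0.25 in Stem and 0.26, 0.25, 0.27 and 0.24 in SecPDG, a difference of 0.00833 (limma, adjusted p = 0.965). The SecPDG values lay within the Stem range. Muc2 mRNA also rose by 5.79 in Tuft and 3.21 in Enterocyte, with a mean PDUI of 0.278 ± 0.0432 and 0.254 ± 0.0288 (SD, n = 5 each). The goblet markers summed as given above, 224000 to 677000 in Enterocyte against 19100 to 32300 in Stem, and the part of goblet cells in these levels was not tested.

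Clca1, a secreted protein of goblet cell mucus, rose by 7.71 on the log2 scale in SecPDG (edgeR, adjusted p = 3.79e-05). Its PDUI was 0.15, 0.76 and 0.30 in Stem, where its mRNA was at 705 to 1736 normalized counts, and 0.41, 0.44, 0.36 and 0.45 in SecPDG. The 3 Stem values spanned a far wider range than the 4 of SecPDG, and the adjusted p by limma was 0.991. Reg4, a secreted lectin of deep crypt secretory cells, rose by 5.79 and had 0.80, 0.63 and 0.54 against 0.89, 0.55, 0.74 and 0.55.

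Zg16, a lectin of the mucus layer, rose by 4.13 in AbsPro (edgeR, adjusted p = 0.00058) and by 5.15 in Enterocyte (2.64e-07). Its PDUI was 0.62, 0.11 and 0.34 in Stem and 0.43, 0.29 and 0.48 in AbsPro in the AbsPro table. In the Enterocyte table, where the site lay 201 rather than 246 bases from the start, the same Stem libraries had 0.73, 0.21 and 0.40 and Enterocyte 0.47, 0.51, 0.47, 0.48 and 0.45. The 5 Enterocyte libraries lay close together within the range of Stem. Krt20, a keratin of the surface epithelium, rose by 3.01 in AbsPro and 4.32 in Enterocyte, with a PDUI in the Enterocyte table of 0.48, 0.59 and 0.85 in Stem and 0.51, 0.44, 0.21, 0.39 and 0.19 in Enterocyte (limma, adjusted p = 0.563). Spdef, the transcription factor of the goblet lineage, and Hepacam2, an immunoglobulin family protein of secretory cells, were the other 2 called in AbsPro, and lacked a PDUI in 1 or more Stem libraries.

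Car1, a carbonic anhydrase of absorptive cells, fell by 3.56 on the log2 scale in SecPDG and by 3.79 in Tuft (edgeR, adjusted p = 0.000195 and 1.76e-05). Its PDUI was 0.10, 0.11 and 0.12 in Stem and 0.12, 0.11, 0.28 and 0.13 in SecPDG, low in 6 of these 7 libraries. Tuft had 0.05, 0.17, 0.17, 0.22 and 0.21, on both sides of Stem. These directions held with DESeq2's size factors and with DESeq2's Wald test for each of the mRNA calls named in the last 4 paragraphs.

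Over all short loci with a PDUI test, those whose gene was called for mRNA are set beside the rest by their median absolute difference of PDUI. In SecPDG it was 0.0675 in 77 transcripts with a called gene and 0.0717 in 1594 without, in Tuft 0.068 in 111 and 0.068 in 1145, in Enterocyte 0.0617 in 186 and 0.0633 in 789, and in EEC 0.09 in 73 and 0.095 in 259. Means at least 0.15 apart made up 28.6% against 23.8% in SecPDG, 26.1% against 22.4% in Tuft, 15.1% against 18.6% in Enterocyte and 30.1% against 35.9% in EEC. An unadjusted p under 0.05 was found at 11.7% (9 loci) against 4.45% in SecPDG, 4.5% against 5.5% in Tuft, 9.68% against 7.48% in Enterocyte and 12.3% against 14.3% in EEC. These are descriptions over loci with no test, since loci are not replicates of a population.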

How the data were processed

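RNA of sorted cells was sequenced in 22 libraries. Per the labels and the study's methods, reads were aligned by the authors to mm10 with STAR 2.5.2a and deposited as raw counts per gene from HTSeq 0.6.1p1, without normalization. The PDUI fraction per transcript and library was made by the authors with DaPars on 2 cell types at a time, from read coverage of the last exon, and is deposited rounded to 2 decimals. Columns of these tables carry a group and a number and could not be tied to a library of the counts, and 68 columns of estimated long and short form coverage were not used. The authors' own fold changes, differences and p-values, and the splicing tables, were not used.

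Transcripts with at least 2 measured libraries in each group were tested in R 4.3.3 with limma 3.58.1 on log2((PDUI + 0.01)/(1 - PDUI + 0.01)), 1 fit per table over all its transcripts, and a call was a p below 0.05 after Benjamini-Hochberg adjustment. The pseudocount bounds the log2 ratio near 0 and 1. There a small change in PDUI still gives a large one in the log2 ratio, as at Hist1h4n in Enterocyte (0.17 and 4.32). Gene counts were tested with edgeR 4.0.16 (filterByExpr, TMM, quasi-likelihood F test, 1 fit of 22 libraries). The main limma fit of each table and the edgeR quasi-likelihood fit were checked on simulated data, and the alternative fits were not. By the study's methods libraries come from independent mice and sorts. Replicate numbers of both kinds of data showed no pairing (correlations of deviations between same-numbered libraries -0.112 to 0.109 for PDUI and -0.0996 to 0.088 for counts). Counts on genes, 4122122 to 22462518 per library, limit the precision, and the PDUI tables hold no read counts, so that no interval was given. Reads not assigned to 1 gene made up 53.9% to 91.6% of libraries and stayed out of tests.

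The rule for named loci took called loci whose groups did not overlap, 5 each way per table, 5 genes of the study, called members of gene lists and the 2 loci on each side of the span limit. With 1 locus called, the 3 loci each way with the largest difference, a gene mean of at least 1000 normalized counts, a value in every library and no overlap were added after values were seen, as were the genes named for their mRNA. The members and lists were chosen with earlier results of these data known. Alternatives were another pseudocount, the PDUI itself, a prior trend, other thresholds, complete loci, 1 transcript per gene and site, spans under 800, a replicate block, each library left out, DESeq2 1.42.0, its size factors, and no filter. Those added after seeing the data were centred libraries, later sites only, and 1 fit of all 22 libraries, also without each EEC library. Summaries used Python 3.11.15 and pandas 2.3.3.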

Additional observations from a re-analysis of the deposited data

Results flagged for a closer look

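One library stood apart from its group by Dixon's test of the gap to its nearest neighbour. The median PDUI of short loci was 0.33 in Tuft 1 and 0.40 in the other 4 Tuft libraries. It was the only such case in 29 groups of 4 or 5 values tested, and chance gives about 1 in 20.

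At some loci all libraries of one population lay above Stem and all of another below it. Each involves EEC with its 2 libraries, the difference between populations was not tested, and each population is from its own table. Mean PDUI was 0.705 in EEC and 0.175 in SecPDG for Cldn7, with Stem at 0.27. It was 0.637 in AbsPro and 0.195 in EEC for Rbm39, a splicing factor, with Stem at 0.36. Atp5f1 had 0.313 in AbsPro and 0.025 in EEC, with Stem at 0.267. Hsp90ab1, a cytosolic chaperone, had 0.282 in Enterocyte and 0.085 in EEC, and Epn1, an endocytic adaptor, 0.526 and 0.145. Among histone H2B genes, Hist2h2bb had 0.495 in SecPDG and 0.27 in EEC, and Hist1h2bg had 0.965 in EEC and 0.647 in AbsPro.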

How the results depend on the processing

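Calls of distal site use were few under each alternative run, apart from those that left out an EEC library. The count of 0 became 2 with a prior trend in AbsPro, and 1 both in SecPDG and in Tuft with each library centred. The 1 call of Enterocyte became 0 with a pseudocount of 0.05, on the PDUI itself and at an adjusted p under 0.01. EEC went from 0 to 14 in 1 fit of all 22 libraries. The cause was not tested. With 1 library left out, the range was 0 to 2 for AbsPro (1 without Stem 1, 2 without Stem 3) and 0 to 3 for SecPDG (1 without Stem 1 or Stem 2, 2 without SecPDG 3, 3 without Stem 3). It was 0 to 4 for Tuft (1 without Stem 1 or Tuft 3, 2 without Tuft 5, 4 without Stem 3) and 0 to 6 for Enterocyte (2 without Stem 1 or Enterocyte 4, 6 without Stem 2, 0 without Enterocyte 1, 2, 3 or 5). For EEC it was 0 to 121, where a lone library is assumed to vary like the rest: the table's own fit called 29 without EEC 1 and 95 without EEC 2, and 1 fit called 56 and 121.

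Genes called for mRNA went from 4 to 11 (AbsPro), 81 to 164 (SecPDG) and 110 to 215 (Tuft) with DESeq2's size factors. DESeq2's Wald test called 40, 235 and 295 there and 294 in Enterocyte, in place of 182. With a library left out the ranges were 1 to 4 (AbsPro, 1 without Stem 1, Stem 2 or AbsPro 3, and 2 without Stem 3), 47 to 72 (SecPDG, 47 without Stem 1), 64 to 135 (Tuft, 64 without Stem 1), 96 to 243 (Enterocyte, 96 without Stem 1, 113 without Enterocyte 2, 119 without Enterocyte 3) and 79 to 229 (EEC, 229 without EEC 2, in place of 114).

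Same-numbered libraries did not deviate together, so numbers were not read as pairs. With a replicate block the distal calls were 0 in all 5 tables, including Enterocyte, and mRNA calls were 224 in Tuft and 299 in Enterocyte.

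Signs of the log2 ratio turned at the loci of Ihh in SecPDG and Tuft and of Cby1 in Tuft and Enterocyte, where neither was called. With a library left out, Ihh ranged from -0.53 (without Stem 1) to 1.41 (without Stem 2) in SecPDG and from -0.06 to 1.89 in Tuft, likewise. Cby1 in Tuft ranged from -1.08 without Stem 1 to 0.34 without Tuft 2, with 0.22 without Stem 2, and was 0.92 in Enterocyte with the block. Of 155 counts of calls, 48 moved by over 1.5 times and 107 did not. For single loci, of which only Hist1h4n was called to begin with, 825 of 845 values kept direction and side of the threshold, 8 lost a call (all of Hist1h4n), 7 gained one and 5 turned. Spread between libraries, wider at genes with fewer counts, limits what these tables can show.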
